A study of Mus musculus with 6 samples.

Results

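Immediate early genes and the inducible heat shock genes were examined in cultured mouse chondrocytes with and without the microRNA miR-34a. The 10 genes were taken by symbol: Fos, Fosb, Jun, Junb, Egr1, Atf3, Ier2, Dusp1, Hspa1a and Hspa1b. Of these, 7 had a row among the 10189 genes of the table: Jun, Junb, Atf3, Ier2, Dusp1, Hspa1a and Hspa1b. Fos, Fosb and Egr1 had no row and are not analysed here. The table holds genes left after a filter by the authors whose rule is not stated, so 7 of the 10 passed it.

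Immediate early genes are switched on within minutes of a stimulus such as serum, growth factors, stretch or tissue digestion, through kinases that activate transcription factors already present in the cell. Many encode transcription factors themselves: proteins of the Fos and Jun families pair to form AP-1, which drives matrix protease genes in cartilage. Hspa1a and Hspa1b encode the inducible HSP70 chaperone, which binds unfolded proteins and is induced by heat shock factor 1.

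RNA-seq of total RNA was compared between 3 KO libraries, from mice homozygous for a global deletion of miR-34a (MiR-34a -/-, allele Mir34atm1.2 Mrl), and 3 wild-type (WT) libraries, all of strain C57BL/6 and age 5 weeks. The labels give the same allele name for both genotypes and state no treatment. Chondrocytes were freed from articular cartilage of knee and hip with collagenase at 3 mg/ml and then cultured with 10% serum until confluent, for a week or somewhat longer by the submitters' account. The labels do not state whether each library had its own animals or its own culture. The titles of WT 1 and WT 3 carry codes with a number in common, whose meaning is not given, so a source shared by these 2 libraries was not tested. The p-values reflect the spread among these 6 libraries, part of which may be technical. The deleted gene, Mir34a, is without a row, which left no check of the genotype from its own level.

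Values are TMM-normalized CPM, counts scaled by library size and by the authors' TMM factors, and whole reads could be recovered from them. Over the filtered genes of the table, the recovered reads of a library added up to 1235981 to 1991232 in KO and 989217 to 5266617 in WT. These sums leave out reads on genes that the filter removed. In WT 1, 59.1% of these reads lay on the ribosomal RNA precursor Rn45s, against 2.98% to 11.4% in the other 5 libraries. Of 16 chondrocyte markers, 13 were measured and 0 of these were at 0 in any library, and their summed level was 3847 to 6925 CPM in KO and 2506 to 3842 CPM in WT.

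None of the 7 genes passed the test between KO and WT. With limma on log2(CPM + 0.5), adjusted over all genes by Benjamini-Hochberg at 0.05, 0 of 7 were called, against 1 of 10189 genes (0.00981%). At an unadjusted limma p below 0.05 the count was also 0 of 7, against 11% of all genes. With recovered reads as input, edgeR's quasi-likelihood test called 0 of 7, with 0.0196% of genes called. At an unadjusted edgeR p below 0.05 there were 0 of 7, beside 463 genes higher and 593 lower in KO among all 10189. DESeq2 gave an adjusted p for 3 of the 7 (Jun, Junb and Dusp1) and called 0 of them, with 2.66% of its 4056 genes called. At an unadjusted DESeq2 p below 0.05 there were 0 of 7, beside 433 genes higher and 510 lower in KO over the table. The mean log2 value was higher in KO for 6 genes and lower for 1. Over the 7 genes the log2 fold change had a median of 0.18, and over all genes 0.02. With edgeR and DESeq2 the median of the 7 was 0.31 and 0.33. The median of its absolute size was 0.19 for the 7 and 0.35 for all genes.

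**Figure D1:**
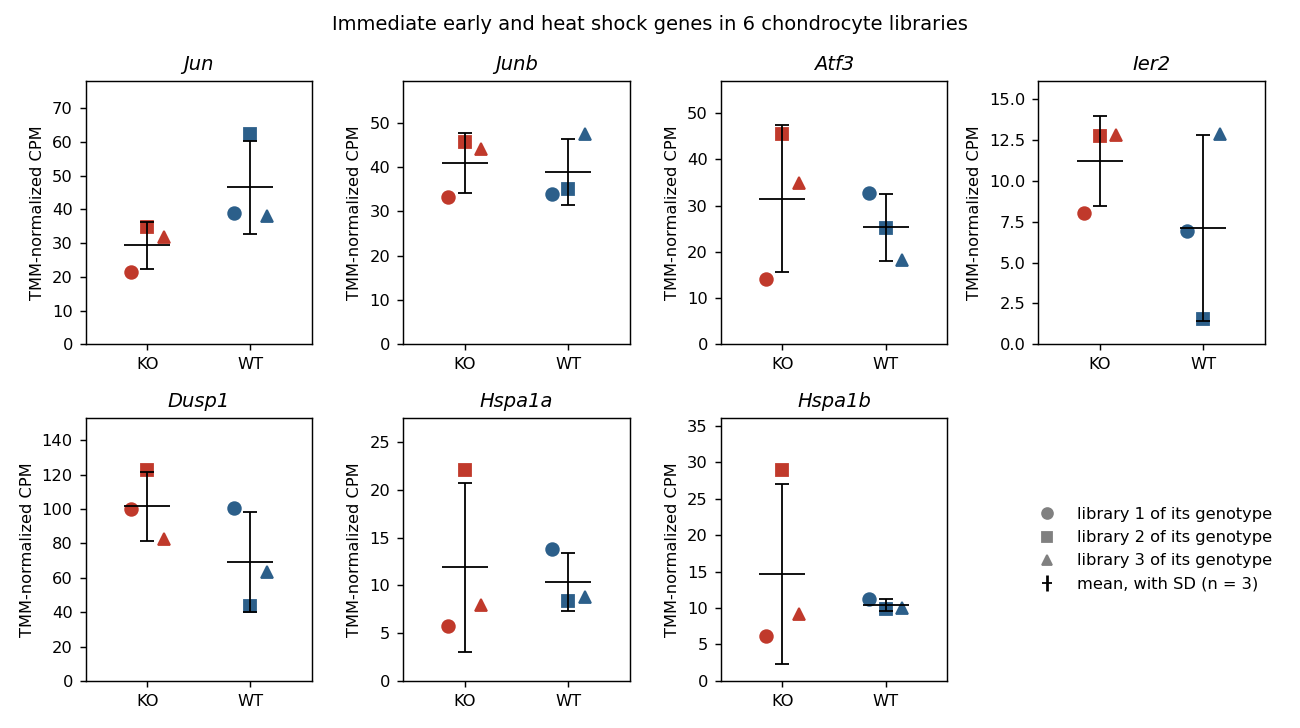
TMM-normalized CPM of the 7 genes in each library, with KO left of WT; symbols mark the 3 libraries of a genotype, and black bars the mean and SD (n = 3). Jun was between 21.4 and 34.8 CPM in KO and between 38.1 and 62.5 CPM in WT, while the other 6 genes overlapped between genotypes.

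Jun encodes c-Jun, the central AP-1 subunit, and lies on chromosome 4 at 95049034 to 95052222 (mm10), minus strand, as 1 exon. Its level was 21.4 CPM in KO 1, 34.8 in KO 2 and 31.8 in KO 3, and 39.0 CPM in WT 1, 62.5 in WT 2 and 38.1 in WT 3. Each KO library lay below each WT library, by a gap that was narrow between KO 2 and WT 3. Jun was the only 1 of the 7 genes without overlap, and 9.57% of all genes showed the same order with KO lower, while 0 of the 7 and 8.82% of all genes had each KO library higher. Jun averaged 29.3 ± 7.04 CPM in KO and 46.5 ± 13.8 CPM in WT (SD, n = 3 each). Its log2 fold change was −0.65 (SE 0.30, 95% interval −1.33 to 0.03, limma adjusted p = 0.467). It rested on 52 to 82 reads per library. With each library left out in turn the fold change was −0.78 to −0.42, below 0 each time and not called. Some marker lists also had each KO library below each WT library. Proliferation markers (9 of 10 measured, 9 with a lower mean in KO) summed to 808 to 1136 CPM in KO and 1555 to 1820 CPM in WT. Mural and smooth muscle markers (7 of 8 measured, 6 lower) summed to 187 to 450.3 CPM in KO and 537 to 750.4 CPM in WT. Neutrophil markers (3 of 9 measured, 3 lower, 2 of them at 0 in at least 1 library) summed to 3.05 to 5.51 CPM in KO and 76.2 to 87.3 CPM in WT. Chondrocyte markers (13 of 16 measured, 11 with a higher mean in KO) went the other way. They summed to 3847 to 6925 CPM in KO and 2506 to 3842 CPM in WT, with KO 2 (3847 CPM) almost level with WT 1 (3842 CPM). The part of these lists in the Jun values was not tested.

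Jun shares 232 exon bases with the antisense gene Junos on the other strand, which has no row. The library kit marks strand, but no source used here states how the counting treated it, so reads over bases shared with an opposite gene are uncertain. The bases around its start are shown because Jun was the gene without overlap; RefSeq (GRCm38.p6) gives 250 bases before and 50 after the start, at chr4:95052173-95052472 on the minus strand, written in the direction of the gene. Capitals mark a heat shock element unit (GAANNTTC) from 128 to 121 bases before the start, and a CCAAT box.
Jun: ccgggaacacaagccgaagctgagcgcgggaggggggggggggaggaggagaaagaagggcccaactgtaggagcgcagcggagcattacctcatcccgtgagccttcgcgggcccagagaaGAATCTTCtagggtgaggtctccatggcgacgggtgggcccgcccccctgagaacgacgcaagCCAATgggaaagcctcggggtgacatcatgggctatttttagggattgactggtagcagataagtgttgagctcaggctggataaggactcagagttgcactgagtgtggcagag

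Junb encodes JunB, an AP-1 subunit that can oppose c-Jun, and lies on chromosome 8 at 84974484 to 84978718, minus strand. It had 33.2, 45.6 and 44.0 CPM in the 3 KO libraries and 33.9, 35 and 47.5 CPM in the 3 WT libraries. The groups overlapped over most of their range. Its log2 fold change was 0.08 (SE 0.25, 95% interval −0.49 to 0.65, limma adjusted p = 0.920), the narrowest interval of the 7, which is 0.710-fold to 1.57-fold on the linear scale. It shares 173 exon bases with Prdx2 on the plus strand, which is in the table.

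Atf3 encodes a stress-induced transcription factor of the ATF/CREB family that can bind with Jun proteins. It lies on chromosome 1 at 191170296 to 191218039, minus strand, with 0 exon bases opposite another gene. It had 14.1, 45.6 and 34.9 CPM in KO and 32.7, 25.1 and 18.2 CPM in WT. KO 1 was the lowest and KO 2 the highest of the 6 libraries, and the WT values fell inside the KO range. Its log2 fold change was 0.19 (SE 0.44, 95% interval −0.79 to 1.184, limma adjusted p = 0.885).

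Ier2 encodes a small nuclear protein of the immediate early response and lies on chromosome 8 at 84661331 to 84662852, minus strand. It had 8.01, 12.7 and 12.8 CPM in KO and 6.91, 1.52 and 12.9 CPM in WT. The highest and the lowest library were both WT. The value of WT 2 came from 2 reads (exact Poisson 95% interval 0.242 to 7.22 reads), against 22 reads in WT 3 (13.8 to 33.3), and these intervals cover counting error only. Its log2 fold change of 0.97 had the widest interval of the 7 genes, −0.70 to 2.63 (SE 0.74, limma adjusted p = 0.624). Without WT 2 it was 0.20.

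Dusp1 encodes a phosphatase that removes the activating phosphates from MAP kinases and so ends the signal that induces immediate early genes. It lies on chromosome 17 at 26505590 to 26562128, minus strand, and shares 11 exon bases with Ergic1 on the plus strand. It had 99.99, 122.5 and 82.6 CPM in KO and 100.5, 43.4 and 63.3 CPM in WT. WT 1 lay among the KO libraries, and the other 2 WT libraries lay below all 3 of them. Dusp1 averaged 101.7 ± 20.0 CPM in KO and 69.1 ± 29.0 CPM in WT (SD, n = 3 each). Its log2 fold change was 0.62 (SE 0.31, 95% interval −0.08 to 1.32, limma adjusted p = 0.493), and 0.33 without WT 2. It was the most deeply counted of the 7, with 57 to 262 reads per library.

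Dusp1 is also the only 1 of the 6 genes with a RefSeq promoter entry whose 300 bases hold a full cAMP response element (TGACGTCA, both strands searched), which 1.79% of 32851 mouse promoters of this length hold. The match lies from 143 to 136 bases before the start. The core TGACGT also occurs at −191 to −186, counted from the start, and inside the full element on both strands. It is in 7.51% of all promoters. The sequence below is chr17:26508423-26508722, minus strand, GRCm38.p6, from RefSeq, in the direction of the gene with these matches in capitals. This RefSeq start lies inside the annotated span of Dusp1 given above, not at its upper end (26562128).
Dusp1: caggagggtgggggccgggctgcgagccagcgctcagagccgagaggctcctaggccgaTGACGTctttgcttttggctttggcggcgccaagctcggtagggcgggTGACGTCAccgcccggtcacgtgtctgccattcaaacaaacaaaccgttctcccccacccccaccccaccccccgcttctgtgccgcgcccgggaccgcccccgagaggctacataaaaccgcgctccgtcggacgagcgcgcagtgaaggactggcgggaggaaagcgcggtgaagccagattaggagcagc

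**Figure D2:**
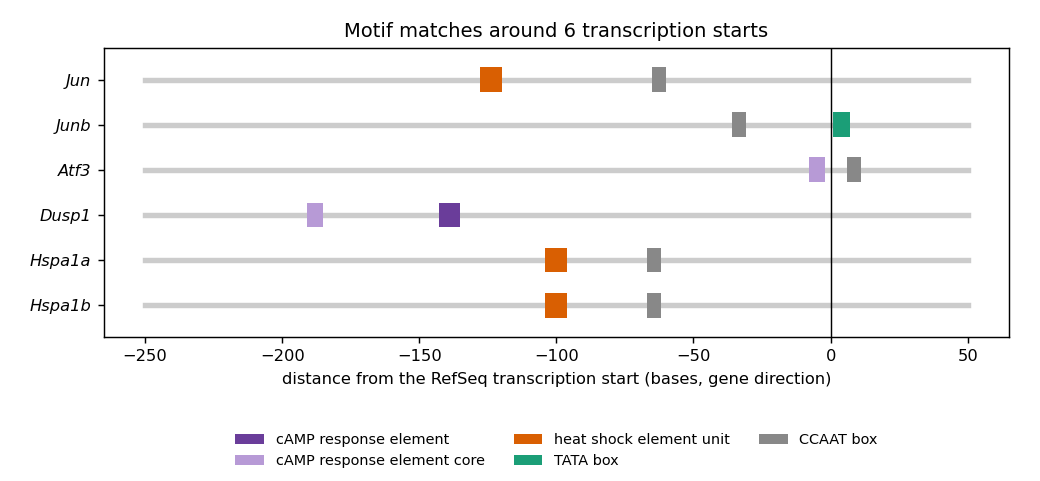
Motif matches in the 300 bases around the RefSeq start of the 6 genes with a promoter entry; the x axis is the distance from the start in bases, and the coloured blocks are matches on either strand. Hspa1a and Hspa1b have matches at the same places, and the full cAMP response element is found in Dusp1 alone of the 6.

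The other motifs searched were the AP-1 site TGANTCA, in 7.81% of all promoters, and the heat shock element unit GAANNTTC, in 7.86%. Its other orientation, spelled TTCNNGAA, is in 8.52%. The TATA box, searched as TATAAA, is in 13.6%, the box named CCAAT in 37.4%, and the CArG box bound by serum response factor in 1.63%. GAANNTTC was found in Jun, Hspa1a and Hspa1b. Atf3 held the core TGACGT on the reverse strand from 8 to 3 bases before its RefSeq start. That start lies inside the annotated span of Atf3 given above, not at its upper end. Junb held the letters TATAAA at bases 1 to 6 counted from the start, so not before it. The CCAAT box was found in 5 of the 6, Dusp1 being without it. In Atf3 it lies after the start, at bases 6 to 10. No match to the AP-1 site, TTCNNGAA or the CArG box was found in these 6 windows, which says only that those letters are not there. A match is no evidence of binding, and Ier2 has no entry.

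The heat shock genes Hspa1a and Hspa1b lie side by side on chromosome 17, minus strand, at 34969190 to 34972156 and at 34956436 to 34959238. Hspa1a had 5.72, 22.0 and 7.95 CPM in KO and 13.8, 8.38 and 8.79 CPM in WT. Hspa1b had 6.11, 28.9 and 9.18 CPM in KO and 11.3, 9.90 and 9.97 CPM in WT. For both genes KO 2 was the highest of the 6 libraries, and KO 1 and KO 3 were the lowest. Hspa1a averaged 11.9 ± 8.85 CPM in KO and 10.3 ± 3.03 CPM in WT, and Hspa1b averaged 14.7 ± 12.4 CPM in KO and 10.4 ± 0.793 CPM in WT (SD, n = 3 each).

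Between genotypes, Hspa1a had a log2 fold change of 0.0017 (SE 0.57, 95% interval −1.28 to 1.28, limma adjusted p = 0.999). Hspa1b had 0.18 (SE 0.57, 95% interval −1.11 to 1.47, limma adjusted p = 0.917). On the recovered reads, edgeR gave 0.20 for Hspa1a and 0.50 for Hspa1b, and DESeq2 gave 0.22 and 0.52. With their reads added up the log2 fold change was 0.09 (SE 0.50, 95% interval −1.03 to 1.21, limma adjusted p = 0.957). These intervals hold a change of more than 2-fold in either direction. Without KO 2, both signs turned, to −0.54 for Hspa1a and −0.44 for Hspa1b, neither called.

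Among the KO libraries both genes spread widely. Hspa1b spanned 4.73-fold among the KO libraries and 1.14-fold among the WT libraries, and Hspa1a 3.85-fold and 1.65-fold. For Hspa1b, KO 2 had 59 reads (exact Poisson 95% interval 44.9 to 76.1), KO 1 had 16 (9.15 to 25.98) and KO 3 had 15 (8.40 to 24.7), so KO 2 exceeded the other KO libraries beyond counting error. Of all genes, 7.90% had a wider log2 range among KO libraries than Hspa1b and 10.7% a wider one than Hspa1a. For Atf3, which spanned 3.23-fold in KO and 1.80-fold in WT, the share was 13.8%. The other 4 genes spanned 1.37-fold to 1.63-fold among KO libraries.

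The transcripts of Hspa1a and Hspa1b are near copies. In GENCODE M21 their coding sequences are 99.6% identical over 1923 aligned bases, and 75.5% of the 75-base windows of the Hspa1a coding sequence, the read length from each end, occur unchanged in Hspa1b. In their 3′ untranslated parts the share is 0%. Over the whole transcripts it is 52.7% for Hspa1a and 55.8% for Hspa1b. The split of reads between the genes is therefore uncertain, and the ratio of Hspa1a to Hspa1b reads was 0.938, 0.763 and 0.867 in KO and 1.22, 0.846 and 0.882 in WT. Hspa1a also shares 564 exon bases with Gm20481 on the plus strand, which has no row, while Hspa1b shares 0.

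Their promoters are near copies too, and are shown because both genes had the same order of high and low KO libraries. Of 300 bases, 296 are identical (98.7%). Counted from 1 at the 5′ end, with the Hspa1a base first, the differences are C44T, T47C, T249G and C276T. Capitals mark the heat shock element unit GAANNTTC at −104 to −97 from the start, and the CCAAT box, read here on the reverse strand. Hspa1a is chr17:34972107-34972406 and Hspa1b chr17:34959189-34959488, both minus strand, GRCm38.p6, from RefSeq.
Hspa1a: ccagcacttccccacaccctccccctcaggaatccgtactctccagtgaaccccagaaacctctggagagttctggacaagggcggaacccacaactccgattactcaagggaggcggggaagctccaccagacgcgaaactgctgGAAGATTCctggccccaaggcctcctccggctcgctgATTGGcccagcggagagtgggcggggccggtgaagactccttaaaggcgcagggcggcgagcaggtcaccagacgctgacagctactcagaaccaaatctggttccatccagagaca
Hspa1b: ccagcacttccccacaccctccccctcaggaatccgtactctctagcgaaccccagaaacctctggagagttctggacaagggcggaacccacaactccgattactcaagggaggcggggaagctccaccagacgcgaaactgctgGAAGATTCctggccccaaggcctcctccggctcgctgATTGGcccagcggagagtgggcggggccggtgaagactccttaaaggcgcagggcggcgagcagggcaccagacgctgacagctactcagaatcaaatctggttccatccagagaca

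miR-34a-5p, the guide strand of the deleted gene, is known to lower its targets by pairing through its seed (bases 2 to 8, in capitals below) with sites in their 3′ untranslated regions. It lies on chromosome 4 at 150068473 to 150068494, plus strand (RefSeq, GRCm38.p6). In the longest annotated 3′ untranslated region of each gene, the matching site CACTGCC occurred once in Hspa1a and once in Hspa1b, at different places (249 to 255 and 556 to 562 bases from the stop codon). The site was absent from those regions of Jun, Junb, Atf3, Ier2 and Dusp1. Among 9352 genes of the table with such a region, 19.3% hold the site. The 2 sites are shown, with flanking bases and the match in capitals, because Hspa1a and Hspa1b are the 2 of the 7 genes that hold one. Neither gene passed the test between genotypes.
miR-34a-5p: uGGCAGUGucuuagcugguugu
Hspa1a site: tcttcaattcagCACTGCCccgc
Hspa1b site: catacatgtctaCACTGCCaccc

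**Figure D3:**
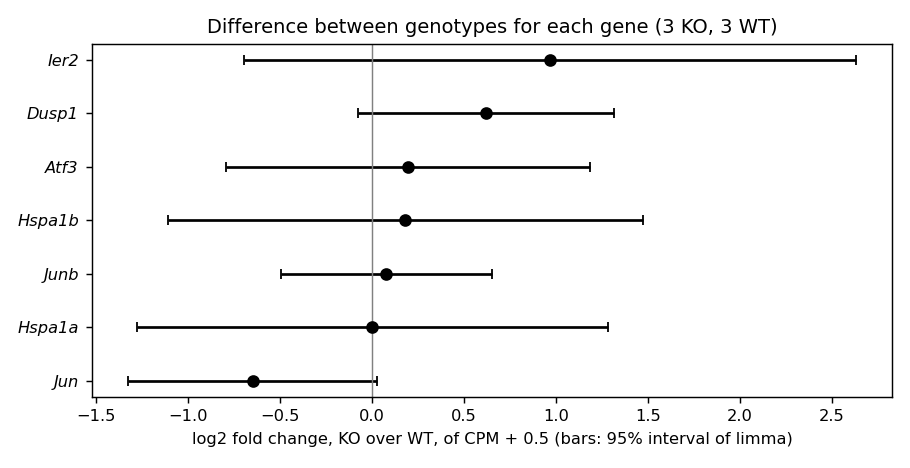
Log2 fold change of each gene, KO over WT, on the log2(CPM + 0.5) scale, with the 95% interval of the limma fit over 3 libraries per genotype. Each of the 7 intervals includes 0; that of Jun ends at 0.03 and that of Ier2 is the widest, from −0.70 to 2.63.

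By library, KO 2 was the highest library for 4 of the 7 genes (Atf3, Dusp1, Hspa1a and Hspa1b), while 20.0% of all genes were highest there. KO 1 was the lowest for 5 of the 7 (Jun, Junb, Atf3, Hspa1a and Hspa1b), against 19.5% of all genes. The mean of the genes' z scores was −0.81, 1.05 and 0.12 in KO 1, KO 2 and KO 3, and 0.13, −0.49 and −0.003 in WT 1, WT 2 and WT 3. The KO values lay on both sides of the WT values. Over the 6 libraries the Pearson correlation of log2 values was 0.95 between Hspa1a and Hspa1b, which share reads, 0.81 and 0.79 between each of them and Atf3, but −0.72 between Jun and Dusp1 and −0.67 between Jun and Ier2. These describe 6 libraries that share a scaling and differ in depth and cell makeup.

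KO 2 also had the highest summed level of macrophage and leukocyte genes, and KO 1 the lowest. All 15 genes of that list were measured, 0 of them at 0 in any library. Of these, 2 had a higher and 13 a lower mean log2 value in KO, with a median log2 fold change of −0.57, and 1 had an unadjusted limma p below 0.05. Their summed level was 1151 CPM in KO 1, 16127 in KO 2 and 3849 in KO 3, against 6634 CPM in WT 1, 6233 in WT 2 and 5667 in WT 3. Lyz2, the macrophage lysozyme gene, made up most of the sum in every library but KO 3. It had 594, 12165 and 1757 CPM in KO and 4139, 3326 and 3649 CPM in WT. Hspa1a and Hspa1b together had 11.8, 51.0 and 17.1 CPM in KO and 25.1, 18.3 and 18.8 CPM in WT. The order of the libraries was the same for both sums, apart from WT 2 and WT 3, which differed by less than 1 read's worth of CPM in the heat shock sum. The Pearson correlation of log2 values with the macrophage sum over the 6 libraries was 0.90 for Hspa1b, 0.89 for Hspa1a, 0.79 for Atf3, 0.60 for Jun, 0.49 for Junb, 0.04 for Dusp1 and 0.03 for Ier2. With Lyz2 left out of the sum, a choice made after the data were seen, the other 14 genes had 557 CPM in KO 1, 3963 in KO 2 and 2091 in KO 3, against 2495 CPM in WT 1, 2907 in WT 2 and 2019 in WT 3. KO 2 was still the highest library and KO 1 the lowest. The correlation was then 0.78 for Hspa1b, 0.77 for Hspa1a, 0.82 for Atf3 and 0.73 for Jun, with 0.45 for Junb, −0.14 for Dusp1 and −0.10 for Ier2. Endothelial markers were also highest in KO 2 and lowest in KO 1. Of 7 listed, 3 were measured, 2 of them at 0 in at least 1 library. They summed to 1.14, 52.4 and 5.51 CPM in KO and 17.6, 22.9 and 48.7 CPM in WT. The sum of the osteoblast markers (6 of 6 measured, 6 with a higher mean in KO) was also highest in KO 2. It was 6707, 19938 and 6992 CPM in KO and 7382, 6742 and 5344 CPM in WT. Spp1 made up most of this sum in KO 2 and in each WT library. It had 2806, 17015 and 3093 CPM in KO and 6321, 4750 and 4689 CPM in WT. The sum without Spp1 is not given here, so the high value of KO 2 may not hold for the other osteoblast markers. The other marker lists were each highest in a library other than KO 2. The part of macrophages and of these other cells in the values was not tested. In bulk RNA a change in the number of cells of a type and one in RNA per cell cannot be told apart.

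**Figure D4:**
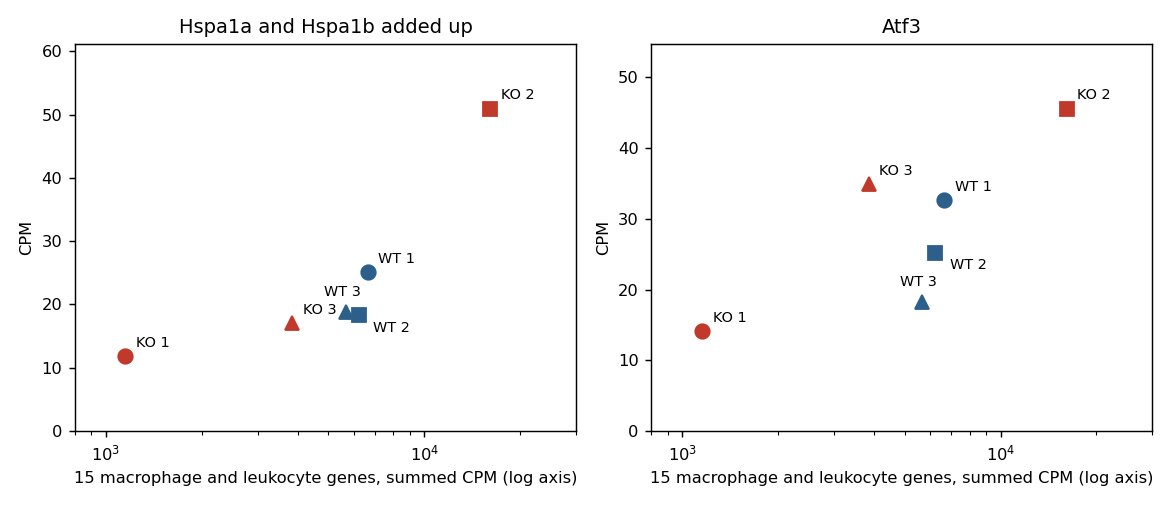
Summed CPM of Hspa1a and Hspa1b (left) and CPM of Atf3 (right) against the summed CPM of 15 macrophage and leukocyte genes on a log axis, 1 point per library. KO 2 is at the upper end of both axes (16127 CPM for the markers, 51.0 CPM for the heat shock genes) and KO 1 at the lower end (1151 and 11.8 CPM), with the WT libraries between them.

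Per kilobase of annotated exon, so that genes can be compared, Dusp1 had the highest level, 30.7 ± 6.04 CPM per kb in KO and 20.9 ± 8.75 CPM per kb in WT (SD, n = 3 each). Junb followed with 17.8 ± 2.93 in KO and 16.9 ± 3.27 in WT, and Atf3 had 14.6 ± 7.42 in KO and 11.8 ± 3.37 in WT, all in CPM per kb. Jun had 9.19 ± 2.21 CPM per kb in KO and 14.6 ± 4.34 in WT, so that it stood below Atf3 in KO and above it in WT. Ier2 had 7.36 ± 1.81 CPM per kb in KO and 4.67 ± 3.74 in WT. Hspa1b had 5.25 ± 4.41 CPM per kb in KO and 3.71 ± 0.283 in WT, and Hspa1a 4.01 ± 2.98 in KO and 3.48 ± 1.02 in WT. Of neighbours in this order, Dusp1 and Junb in KO had ranges that did not overlap (24.9 to 37.0 and 14.4 to 19.8 CPM per kb), and in WT they overlapped. Jun and Ier2 overlapped in KO (6.70 to 10.9 and 5.27 to 8.44 CPM per kb). In WT, where Atf3 stood between them, Jun and Ier2 did not overlap (11.95 to 19.6 and 1.00 to 8.47 CPM per kb). Atf3 had 8.44 to 15.2 CPM per kb in WT and overlapped both.

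Of 57 other immediate early genes listed, 41 were measured, with higher means in KO for 20 and lower for 21. Limma, edgeR and DESeq2 each called 0 of the 41, and at an unadjusted limma p below 0.05 there were 1 higher and 3 lower in KO, against the 11% of all genes given above. The median log2 fold change was −0.0033, beside 0.02 for all genes. Id1, an inhibitor of helix-loop-helix factors and a BMP target, had 18.6 ± 4.02 CPM in KO and 8.21 ± 3.22 CPM in WT (log2 fold change 1.19, SE 0.45). Cebpd, a C/EBP family transcription factor, had 103 ± 21.4 CPM in KO and 176 ± 28.2 CPM in WT (−0.77, SE 0.22). Nfil3, a basic leucine zipper repressor, had 12.8 ± 1.86 CPM in KO and 22.6 ± 2.00 CPM in WT (−0.80, SE 0.31). Errfi1, a feedback inhibitor of the EGF receptor, had 77.7 ± 22.4 CPM in KO and 121 ± 29.4 CPM in WT (−0.65, SE 0.28). Their limma adjusted p-values were 0.283 to 0.435. Among those further from the threshold, Btg1, Sgk1 and the Fos family gene Fosl2 had log2 fold changes of 0.68, 0.59 and 0.37, and Cyr61, a matricellular target of serum response, had −0.45. KO 2 was the highest library for 17 of the 41 and KO 1 the lowest for 12, beside 20.0% and 19.5% of all genes.

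Of 29 kinases and transcription factors listed as regulators of immediate early genes, 24 were measured, with 0 called by the 3 tools, 14 with higher and 10 with lower means in KO, and 0 had an unadjusted limma p below 0.05. The median log2 fold change was 0.13. Those with the smallest p were Elk4, a partner of serum response factor (0.72, SE 0.40), and the MAP kinase kinase genes Map2k2 (0.49, SE 0.28) and Map2k7 (0.53, SE 0.35) on the higher side, with Mkl2, a coactivator of serum response factor, at 0.55 (SE 0.43). On the lower side were Elk3 (−0.41, SE 0.23), Mkl1 (−0.89, SE 0.63), the JNK gene Mapk8 (−0.25, SE 0.29) and Rps6ka1 (−0.40, SE 0.54).

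Of 35 other heat shock and chaperone genes listed, 34 were measured, 18 with higher and 16 with lower means in KO, and a median log2 fold change of 0.04. The 3 tools called 0 of the 34, and 0 had an unadjusted limma p below 0.05. KO 2 was the highest library for 9 of the 34 and the lowest for 9. Hsp90aa1, the inducible HSP90 gene, had 774, 510.0 and 682 CPM in KO and 795, 758 and 805 CPM in WT, lowest in KO 2. Dnaja1, an HSP70 cochaperone, had 320, 235 and 323 CPM in KO and 323, 357 and 385 CPM in WT, again lowest in KO 2. Bag3, a cochaperone that binds HSP70, had 24.0, 5.39 and 23.2 CPM in KO and 4.40, 7.62 and 9.97 CPM in WT, so that KO 1 and KO 3 were high and KO 2 was within the WT range. Dnajb4 had 23.3, 53.9 and 20.2 CPM in KO and 45.9, 43.4 and 42.2 CPM in WT, highest in KO 2 like Hspa1a and Hspa1b. Cryab, a small heat shock protein gene, was also highest there, with 57.6, 112 and 52.0 CPM in KO and 42.1, 60.9 and 56.3 CPM in WT. Hspa13 and Hspe1 had log2 fold changes of 0.53 and 0.32, and Stip1 −0.22. A further 4 genes of the list were picked after their values were seen. The HSP70 cochaperone gene Dnajb1 had 24.4, 17.6 and 22.6 CPM in KO and 20.1, 19.0 and 20.5 CPM in WT, lowest in KO 2. Hspa8, the constitutive HSP70 gene, had 878, 745 and 950.0 CPM in KO and 1024, 944 and 901 CPM in WT, also lowest in KO 2. Hspb1, a small heat shock protein gene, had 6.87, 10.8 and 7.95 CPM in KO and 9.42, 3.05 and 10.6 CPM in WT, highest in KO 2. Hsph1, a large HSP70 relative, had 29.0, 38.2 and 28.8 CPM in KO and 54.7, 14.5 and 31.1 CPM in WT, highest in WT 1.

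**Figure D5:**
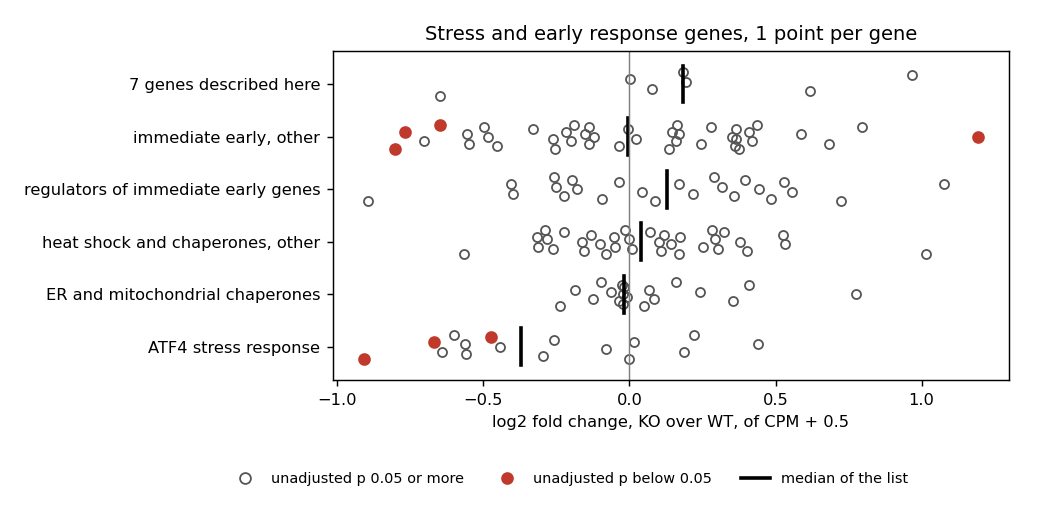
Log2 fold change, KO over WT, of each measured gene (1 point each) in the 7 genes described here and in 5 lists of related genes; filled points have an unadjusted limma p below 0.05 and black bars are medians. The 7 genes have no filled point and a median of 0.18, and the list medians lie between −0.37 and 0.13.

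The genes whose log2 values over the 6 libraries were most like the mean z score of the 7 were Tdp2 (Pearson r = 0.996), Man2b1 (0.986), Igf1 (0.984), 4933434E20Rik (0.981), 1110007C09Rik (0.979) and Rab31 (0.977). Of the other genes, 81 (0.796%) had an r of at least 0.9. Igf1, a growth factor of cartilage that macrophages also make, had 62.2, 211 and 115 CPM in KO and 99.9, 65.5 and 107 CPM in WT. Man2b1, a lysosomal mannosidase gene, had 37.0, 144 and 77.1 CPM in KO and 81.0, 46.5 and 81.5 CPM in WT. Both were highest in KO 2 and lowest in KO 1. So was the mean z score that they were picked to match, so this order is no separate result.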

How the data were processed

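RNA-seq of 3 KO and 3 WT chondrocyte libraries was analysed from 1 table. The deposited unit is a signal: counts that the authors turned into CPM with TMM factors, per the table's name, which also says that its 10189 genes were filtered. No source used here states the filter's rule. The tests had been planned for CPM, and the same log-scale test was kept. Tools listed in the submitters' processing notes, without roles, are HISAT2 2.1.0, StringTie 1.3.5, cutadapt 1.18, bcl2fastq and edgeR, and the build is mm10. Dividing each library by its smallest step gave whole reads for 100% of values, within 0.001 reads. Of the 6 column names, 5 matched a sample title, and that of KO 3 has a letter O where the title has a zero; 0 value columns were left unmapped.

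All genes were fitted with limma 3.58.1 (R 4.3.3, intensity trend, log2(CPM + 0.5), two-sided, Benjamini-Hochberg over all genes, called below 0.05). Log2 fold changes are differences of mean log2(CPM + 0.5), and those of low genes depend on this scale: Ier2 had 0.97 with limma, 0.62 with edgeR and 0.65 with DESeq2. Recovered reads were tested with edgeR 4.0.16 and DESeq2 1.42.0. The code of the fit was checked on simulated counts with 1 fixed spread setting for all genes and no differences in cell makeup. That check does not show how the fit does on libraries that differ as these do. Libraries of a genotype differed beyond sampling noise (chi-square per degree of freedom 6.00 to 27.8). Positions, exon lengths and 3′ untranslated regions came from GENCODE M21, an annotation of mm10, and promoters and the microRNA from RefSeq. Python 3.11.15 served for the other steps.

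The genes and lists were chosen with earlier results of these data known. Named are the genes with a row and the genes of smallest p in each list (up to 4 per direction). Also named are the 6 genes most alike in pattern. Dnajb1, Hsph1, Hspb1, Hspa8, Lyz2 and Spp1 were added after their values were seen. Alternatives were other pseudocounts (1 and 0.1), a mean of at least 20 CPM, 2 other scalings, limma without trend or robust, a replicate block, the count tests, leaving out each library, and adding up Hspa1a and Hspa1b.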

Additional observations from a re-analysis of the deposited data

How the results depend on the processing

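No alternative called any of the 7 genes, and Jun (log2 fold change −0.89 to −0.42), Dusp1 (0.33 to 0.93) and Ier2 (0.20 to 1.57) kept their direction in each. The count over all genes was 1 in the fit reported and 2 with a pseudocount of 1, 10 without trend, 4 with robust limma, 2 with edgeR, 108 with DESeq2, 2 without KO 2 and WT 1 together (added after the data were seen), and 0 (without WT 1) to 32 (without KO 2) when 1 library was left out, each of the 6 moving it over 1.5 times. With the replicate block it was 0, and the member count stayed 0. Deviations of same-numbered libraries from their genotype mean had correlations of 0.02, 0.07 and −0.06. Those of libraries with unlike numbers had −0.10 to 0.09. No pairing by number was seen, but so few libraries cannot exclude one. Hspa1a turned to −0.0052 with a pseudocount of 0.1 and −0.13 with quantile normalization. Without KO 2 and WT 1 together the log2 fold change of Junb was −0.0921, Hspa1a −0.32 and Hspa1b −0.38. Leaving out 1 library gave −0.0089 to 0.23 for Junb, −0.14 to 0.68 for Atf3, −0.54 to 0.38 for Hspa1a and −0.44 to 0.63 for Hspa1b, the lowest of the last 3 without KO 2, and a median of −0.14 to 0.62 over the 7. The correlation with the macrophage sum turned to −0.10 for Ier2 and −0.14 for Dusp1 without Lyz2. The causes were not tested. The scalings moved the median of all genes by 0.01 and −0.01. Hspa1a, Hspa1b and Ier2 gave no value at a mean of at least 20 CPM. Depth limits Ier2, Hspa1a and Hspa1b most, with 2 to 59 reads per library.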

Other observations

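The ATF4 stress response is used by cells when amino acids run short or the endoplasmic reticulum is loaded. Of 17 of its genes listed, 16 were measured, 5 with higher and 11 with lower means in KO, and the median log2 fold change was −0.37, beside 0.02 for all genes. None was called by limma, edgeR or DESeq2 (0 of 16), while 3 had an unadjusted limma p below 0.05, all with a lower mean in KO, and 11% of all genes had such a p in either direction. Slc7a11, the cystine transporter gene, had 75.2, 85.3 and 86.9 CPM in KO and 119, 127 and 149 CPM in WT (log2 fold change −0.67, SE 0.19). Psat1, an enzyme of serine synthesis, had 28.2, 16.2 and 25.7 CPM in KO and 40.8, 47.2 and 41.6 CPM in WT (−0.91, SE 0.28). Atf4 itself had 116, 94.1 and 128 CPM in KO and 163, 162 and 142 CPM in WT (−0.47, SE 0.19). In these 3 genes each KO library lay below each WT library, as in 9.57% of all genes, and their limma adjusted p-values were 0.283 to 0.416. The summed proliferation, mural and neutrophil markers were also lower in each KO library (proliferation 808 to 1136 CPM in KO and 1555 to 1820 CPM in WT). Summed chondrocyte markers were higher in each KO library (3847 to 6925 CPM in KO and 2506 to 3842 CPM in WT), but KO 2 (3847 CPM) was almost level with WT 1 (3842 CPM). The part of these lists in the ATF4 response values was not tested. KO 2 was the lowest of the 6 libraries for 12 of the 16 genes, against 19.7% of all genes, while Atf3, which ATF4 can induce, was highest there. Phgdh had −0.56 (SE 0.33), and Nupr1, Atf5, Sesn2 and Trib3 had 0.44, 0.22, 0.19 and 0.02.

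Of 19 chaperones of the endoplasmic reticulum and mitochondria, all measured, 8 had higher and 11 lower means in KO, with a median of −0.02, and 0 were called by the 3 tools or had an unadjusted limma p below 0.05. KO 1 was the highest library for 10 of them and KO 2 the lowest for 9. The members of smallest p were Dnajb9 (0.78, SE 0.45), Pdia4 (0.24, SE 0.19), Herpud1 (0.35, SE 0.29) and Creld2 (0.41, SE 0.39) on the higher side, and Lonp1 (−0.24, SE 0.19), Sdf2l1 (−0.18, SE 0.32), Hspa9 (−0.12, SE 0.23) and Hsp90b1 (−0.10, SE 0.19) on the lower side.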
